A study of Homo sapiens with 12 samples.

Results

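The genes described here are TNF and 9 genes of the NF-kB pathway that it drives: the subunits NFKB1, NFKB2, REL, RELA and RELB, the inhibitors NFKBIA and NFKBIE, and the feedback genes TNFAIP3 and BIRC3. They were taken by name, 10 of the 57353 gene names in the count table. Their RNA was followed in the human AML line MOLM-13, an established culture model with FLT3-ITD, an internal duplication that keeps the FLT3 receptor kinase active. All cells were wild type apart from what the line itself carries and came from this line alone. They received vehicle or 3 nM quizartinib (AC220), an inhibitor of FLT3, for 15 hr. The medium was RPMI or hBMSC-CM, in which part of the RPMI had been conditioned by the human bone marrow stromal line HS-5. The 4 groups, which are vehicle in RPMI, quizartinib in RPMI, vehicle in hBMSC-CM and quizartinib in hBMSC-CM, had 3 libraries each. The study asked how hBMSC-CM changes the transcriptional response of FLT3-ITD cells to FLT3 inhibition.

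TNF is an inflammatory cytokine that monocytic cells make and that binds the receptors encoded by TNFRSF1A and TNFRSF1B. The receptors recruit TRAF adaptors and ubiquitin ligases such as the BIRC2 and BIRC3 proteins, which activate the IKK kinases. IKK marks the IkB inhibitors, NFKBIA among them, for destruction, and the freed dimers of RELA, REL, RELB and the NFKB1 and NFKB2 products enter the nucleus. Their targets include TNF itself, and also NFKBIA, TNFAIP3 and BIRC3, through which the pathway limits or sustains its own activity. RNA levels do not show how much of the protein is nuclear.

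Libraries held 19966546 to 31546104 counts. All 13 myeloid and leukemia markers that were checked had a mean of at least 1 CPM (counts scaled to library size by TMM) over the 12 libraries. Of 12 stromal markers, 5 were at 0 in every library, and their summed level was 3.18 to 4.24 CPM with vehicle and 6.32 to 13.5 CPM with quizartinib, the highest values being those of RPMI. Of 11 lymphoid and erythroid markers, 1 was at 0 in every library and the sum was 19.6 to 37.1 CPM. In bulk RNA, fewer cells with a transcript and less of it per cell cannot be told apart. CPM are shares of a library, and the study reports lower RNA yields from quizartinib-treated cells in a separate experiment. A rise, a fall or an unchanged level is therefore relative to the other RNA and is not an amount per cell. A gene was called changed at an adjusted p under 0.05 in edgeR's quasi-likelihood test, which was run on 12998 genes. The study calls its replicates biological, but the labels do not say that those of a group were separate cultures, so the p-values measure the spread between these libraries. The spread exceeded sampling noise within every group.

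The start regions of TNF, TNFAIP3, NFKBIA and BIRC3 are shown because the first 2 of these genes moved most, NFKBIA is the direct inhibitor of the dimers, and BIRC3 had no counts. Each is 250 bases before and 50 bases from the RefSeq transcription start in GRCh38.p14, written 5′ to 3′ on the strand of the gene, and capitals mark a match to the kB consensus or a TATA box.
TNF, chr6:31575315-31575614, plus strand: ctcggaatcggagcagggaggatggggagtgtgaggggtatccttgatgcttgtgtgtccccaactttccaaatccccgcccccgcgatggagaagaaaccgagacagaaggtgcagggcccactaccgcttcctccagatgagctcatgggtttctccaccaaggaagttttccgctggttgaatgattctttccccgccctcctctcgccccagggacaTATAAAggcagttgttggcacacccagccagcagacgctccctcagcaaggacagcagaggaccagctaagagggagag
TNFAIP3, chr6:137867009-137867308, plus strand: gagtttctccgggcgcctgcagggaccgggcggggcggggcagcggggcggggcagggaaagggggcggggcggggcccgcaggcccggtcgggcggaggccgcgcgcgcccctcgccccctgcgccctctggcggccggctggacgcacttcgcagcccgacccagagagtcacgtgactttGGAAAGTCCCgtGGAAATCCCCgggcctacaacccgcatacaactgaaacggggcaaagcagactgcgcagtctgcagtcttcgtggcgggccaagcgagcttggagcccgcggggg
NFKBIA, chr14:35404700-35404999, minus strand: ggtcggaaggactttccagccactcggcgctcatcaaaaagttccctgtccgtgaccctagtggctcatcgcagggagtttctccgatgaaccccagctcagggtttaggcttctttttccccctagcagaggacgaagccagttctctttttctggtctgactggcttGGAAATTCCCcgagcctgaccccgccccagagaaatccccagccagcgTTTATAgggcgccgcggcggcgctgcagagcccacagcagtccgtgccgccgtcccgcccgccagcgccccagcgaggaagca
BIRC3, chr11:102317234-102317533, plus strand: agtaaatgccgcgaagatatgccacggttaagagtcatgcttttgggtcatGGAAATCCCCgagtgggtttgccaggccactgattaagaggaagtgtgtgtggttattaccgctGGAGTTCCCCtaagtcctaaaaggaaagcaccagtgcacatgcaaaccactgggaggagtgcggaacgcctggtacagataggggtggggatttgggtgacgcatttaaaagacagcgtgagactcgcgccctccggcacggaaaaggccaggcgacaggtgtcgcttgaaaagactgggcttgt

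The kB consensus is the 10-base NF-kB binding motif, searched on both strands, and the TATA box was searched as TATAAA on both strands. The window of TNFAIP3 held GGAAAGTCCC, from 67 to 58 bases before the start, and GGAAATCCCC, from 55 to 46 bases before it. That of NFKBIA held GGAAATTCCC from 81 to 72 bases before the start and the TATA box, on the opposite strand, from 33 to 28 bases before it. That of BIRC3 held GGAAATCCCC and GGAGTTCCCC. The TNF window held a TATA box from 29 to 24 bases before the start and no match to the consensus, which says only that these letters are not in this window. Among the 35116 windows of the RefSeq table, 11.3% held the kB consensus and 11.5% the TATA box. Of 8 members with a window, 6 held the consensus, namely NFKB1, NFKB2, REL, NFKBIA, TNFAIP3 and BIRC3, and 2 held the TATA box. A looser form, GGGNNNNNCC on either strand, which contains every consensus match, was in 58.7% of all windows and in each of the 12 member windows.

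TNF, at chr6:31575565-31578336 on the plus strand (hg38, 4 exons), was the most abundant member with vehicle and the one that changed most with quizartinib. It was 350, 335 and 355 CPM in the libraries with vehicle in RPMI and 13.4, 12.4 and 14.1 CPM with quizartinib in RPMI. In hBMSC-CM it was 341, 321 and 317 CPM with vehicle and 22.6, 23.5 and 27.4 CPM with quizartinib. The vehicle libraries of the 2 media overlapped, all quizartinib libraries lay far below them, and every quizartinib library in hBMSC-CM lay above every one in RPMI. With quizartinib, TNF was thus at 3.84% ± 0.25 (SD, n = 3) of the vehicle mean in RPMI and at 7.51% ± 0.79 (SD, n = 3) in hBMSC-CM. In RPMI, TNF fell by 4.71 ± 0.07 (log2, SE) (adjusted p = 2.78e-22, edgeR) and in hBMSC-CM by 3.74 ± 0.06 (adjusted p = 9.55e-21, edgeR). Counted from the strongest decrease, it ranked 5 in RPMI and 1 in hBMSC-CM among the 12998 genes. With quizartinib it was 1.84-fold higher in hBMSC-CM than in RPMI (adjusted p = 7.16e-10), whereas with vehicle the difference of −0.09 ± 0.05 on the log2 scale did not pass the test (adjusted p = 0.207). The difference between the responses in the 2 media was 0.97 ± 0.09 (adjusted p = 1.28e-08). Ordered by level, TNF ran from vehicle in RPMI and vehicle in hBMSC-CM, which did not pass the test against each other, to quizartinib in hBMSC-CM and quizartinib in RPMI.

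TNFAIP3, at chr6:137867214-137883314 on the plus strand (9 exons), encodes A20, a ubiquitin-editing enzyme that shuts off NF-kB signalling. It was 101, 103 and 106 CPM with vehicle in RPMI and 9.04, 9.74 and 9.64 CPM with quizartinib in RPMI. In hBMSC-CM the libraries held 74.7, 70.5 and 68.9 CPM with vehicle and 20.5, 20.3 and 20.6 CPM with quizartinib. No group overlapped another, and the order was vehicle in RPMI, vehicle in hBMSC-CM, quizartinib in hBMSC-CM and quizartinib in RPMI, with every neighbouring pair past the test. Quizartinib left TNFAIP3 at 9.18% ± 0.37 (SD, n = 3) of the vehicle mean in RPMI and at 28.7% ± 0.17 (SD, n = 3) in hBMSC-CM. In RPMI it fell by 3.44 ± 0.06 on the log2 scale (adjusted p = 1.42e-21) and by 1.80 ± 0.05 in hBMSC-CM (adjusted p = 7.15e-17), a difference between responses of 1.64 ± 0.08 (adjusted p = 3.71e-13). TNFAIP3 moved in opposite directions with the medium, being 2.16-fold higher in hBMSC-CM with quizartinib (adjusted p = 1.45e-12) and 1.44-fold lower with vehicle (adjusted p = 1.56e-08). The lncRNA WAKMAR2 overlaps it on the opposite strand, and without a stated strand setting their reads cannot be told apart.

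**Figure D1:**
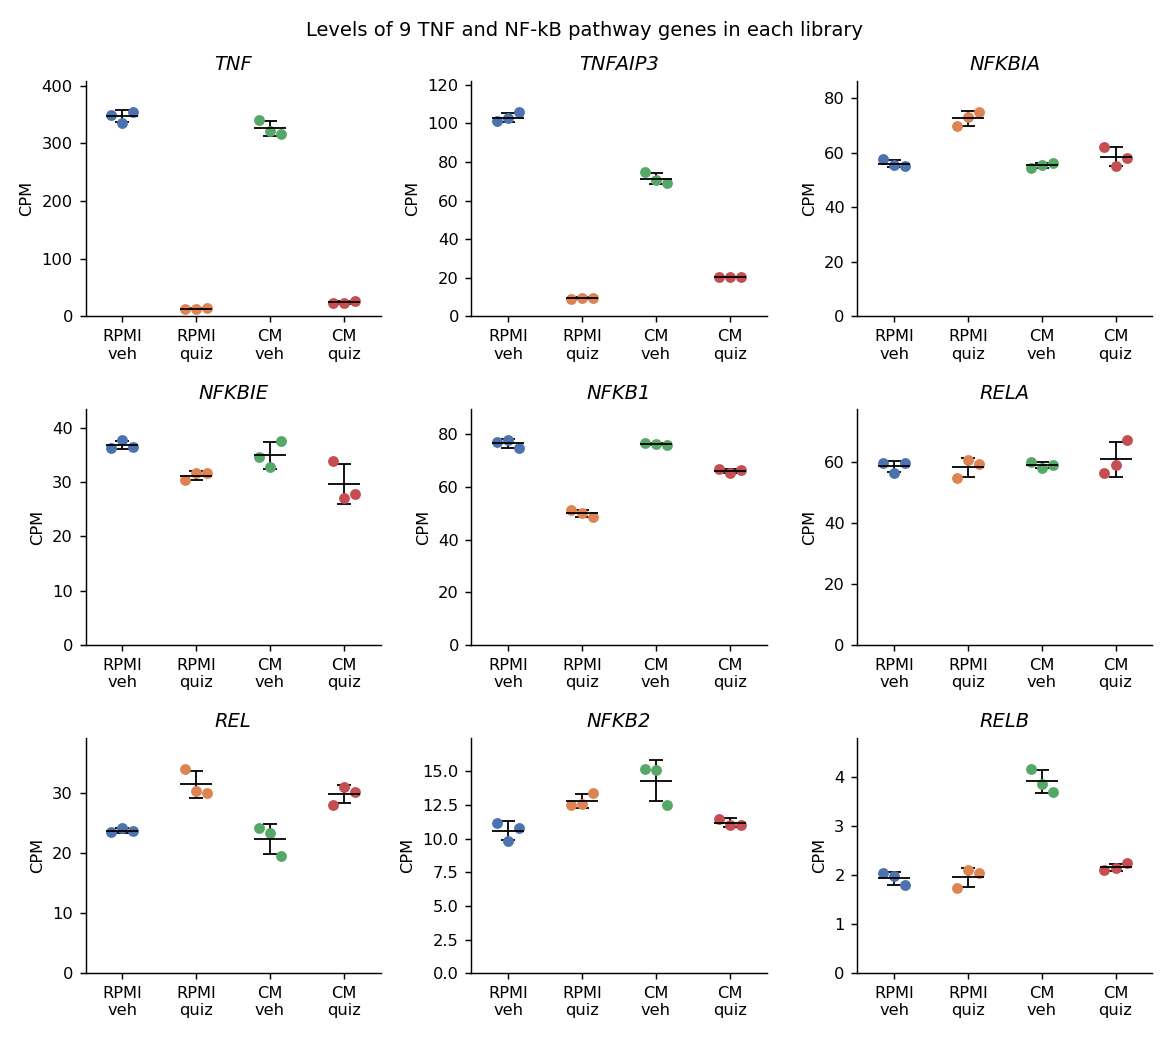
Level of each member in CPM (y axis, from 0) in the 12 libraries, by group (veh, vehicle; quiz, quizartinib; CM, hBMSC-CM). Points are libraries, the horizontal mark is the group mean and the bars are 1 SD (n = 3). TNF is at 317 to 355 CPM with vehicle and 12.4 to 27.4 CPM with quizartinib, whereas RELA is at 54.7 to 67.1 CPM in all libraries.

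The IkB inhibitors moved far less than TNFAIP3. NFKBIA, which encodes IkB-alpha and lies at chr14:35401079-35404749 on the minus strand (6 exons), was 57.6, 55.5 and 55.3 CPM with vehicle in RPMI, 69.8, 73.3 and 75.1 CPM with quizartinib in RPMI, 54.3, 55.5 and 56.3 CPM with vehicle in hBMSC-CM and 62.2, 55.2 and 58.3 CPM with quizartinib in hBMSC-CM. Only the quizartinib libraries in RPMI stood apart, above all others. Quizartinib raised NFKBIA in RPMI by 0.37 ± 0.05 on the log2 scale (adjusted p = 5.25e-07) and its change of 0.08 ± 0.05 in hBMSC-CM did not pass the test (adjusted p = 0.145). The responses differed by −0.29 ± 0.07 (adjusted p = 0.00213), and with quizartinib NFKBIA was 1.24-fold lower in hBMSC-CM (adjusted p = 9.89e-06). The uncalled change in hBMSC-CM passed the test with library size only (0.19) or upper-quartile factors (0.17) in place of TMM, and without hBMSC-CM quizartinib replicate 2 (0.13).

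NFKBIE encodes IkB-epsilon and lies at chr6:44258166-44265788 on the minus strand (6 exons). It was 36.2, 37.7 and 36.5 CPM with vehicle and 30.4, 31.6 and 31.7 CPM with quizartinib in RPMI. In hBMSC-CM it was 34.6, 32.7 and 37.5 CPM with vehicle and 33.8, 27.1 and 27.8 CPM with quizartinib, where 1 quizartinib library reached into the vehicle range. In RPMI it fell by 0.24 ± 0.07 on the log2 scale (adjusted p = 0.00421) and by 0.23 ± 0.07 in hBMSC-CM (adjusted p = 0.00706), and the responses did not differ past the test (difference 0.00 ± 0.10). Neither decrease passed the test with library size only (−0.15 and −0.13) or with upper-quartile factors (−0.13 and −0.15). The decrease in hBMSC-CM also missed it without hBMSC-CM quizartinib replicate 2 (−0.17, adjusted p = 0.0531).

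BIRC3, at chr11:102317484-102339403 on the plus strand (9 exons), encodes the ubiquitin ligase cIAP2. It had 0 counts in all 12 libraries, 0 of 296472077 counts, which allows up to 0.0101 CPM over all libraries and 0.0951 to 0.15 CPM in each, for counting error only. It could not be tested. Its paralog BIRC2, next to it at chr11:102347211-102378670, was at 48.5 CPM with vehicle in RPMI, 67.9 CPM with quizartinib in RPMI, 43.7 CPM with vehicle in hBMSC-CM and 53.1 CPM with quizartinib in hBMSC-CM (means, n = 3). TMEM123, the next gene, was at 407 to 447 CPM. An lncRNA overlaps BIRC3 on the opposite strand. Whether the transcript is missing from the cells or from the counting was not tested.

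Of the subunits, NFKB1, NFKB2, RELB and REL changed in at least 1 comparison and RELA in none. NFKB1, whose product p105 is cut to the DNA-binding subunit p50, lies at chr4:102501330-102617302 on the plus strand (24 exons). It was 77.2, 77.7 and 74.7 CPM with vehicle and 51.4, 49.9 and 48.7 CPM with quizartinib in RPMI. In hBMSC-CM it was 76.7, 76.1 and 75.7 CPM with vehicle and 66.7, 65.1 and 66.3 CPM with quizartinib. The vehicle groups overlapped, and the quizartinib groups lay apart from them and from each other. NFKB1 was at 65.4% ± 1.8 (SD, n = 3) of the vehicle mean in RPMI and 86.7% ± 1.1 (SD, n = 3) in hBMSC-CM. In RPMI it fell by 0.61 ± 0.04 on the log2 scale (adjusted p = 1.49e-11) and by 0.21 ± 0.04 in hBMSC-CM (adjusted p = 0.000192), with a difference of 0.41 ± 0.06 (adjusted p = 9.05e-06). Its order of levels was that of TNF.

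NFKB2 and RELB, which encode p100/p52 and RelB of the non-canonical arm, both had their highest mean with vehicle in hBMSC-CM. For NFKB2 this group overlapped quizartinib in RPMI and did not pass the test against it (0.16 ± 0.08, adjusted p = 0.0775, edgeR). NFKB2, at chr10:102394110-102402524 on the plus strand (23 exons), was 11.2, 9.83 and 10.8 CPM with vehicle and 12.5, 12.6 and 13.4 CPM with quizartinib in RPMI. In hBMSC-CM it was 15.2, 15.1 and 12.5 CPM with vehicle and 11.5, 11 and 11 CPM with quizartinib. Quizartinib libraries lay above vehicle libraries in RPMI and below them in hBMSC-CM. NFKB2 rose by 0.27 ± 0.09 on the log2 scale in RPMI (adjusted p = 0.00696) and fell by 0.36 ± 0.09 in hBMSC-CM (adjusted p = 0.000998), and the responses differed by −0.63 ± 0.12 (adjusted p = 0.000242). With vehicle it was 1.35-fold higher in hBMSC-CM (adjusted p = 0.000545). With quizartinib the difference between media was −0.19 ± 0.09 and just missed the test (adjusted p = 0.052). That call depended on the settings: NFKB2 was called lower in hBMSC-CM with DESeq2-type size factors (−0.20, adjusted p = 0.0405), with library size only (−0.20, adjusted p = 0.0411), with upper-quartile factors (−0.25, adjusted p = 0.0148), with only the 2 groups in the model (−0.19, adjusted p = 0.0487), and with library sizes summed over the tested genes (−0.20, adjusted p = 0.0461), the last chosen after the data were seen. It was also called lower without hBMSC-CM vehicle replicate 3 (−0.19, adjusted p = 0.0342), RPMI vehicle replicate 1 (−0.20, adjusted p = 0.0497) or RPMI vehicle replicate 2 (−0.20, adjusted p = 0.0397), and in none of the other fits run. The rise in RPMI was lost when no filter on low counts was used (0.17, adjusted p = 0.125).

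RELB, at chr19:45001461-45038192 on the plus strand (12 exons), was the least abundant detected member, with 39 to 127 counts a library. It was 2.05, 1.99 and 1.8 CPM with vehicle and 1.74, 2.11 and 2.04 CPM with quizartinib in RPMI. In hBMSC-CM it was 4.17, 3.85 and 3.7 CPM with vehicle and 2.11, 2.14 and 2.25 CPM with quizartinib. The vehicle libraries in hBMSC-CM stood above all others. RELB was 2.01-fold higher in hBMSC-CM with vehicle (1.01 ± 0.14 on the log2 scale, adjusted p = 9.36e-06), and quizartinib lowered it by 0.86 ± 0.14 there (adjusted p = 9.97e-06), leaving 55.4% ± 1.9 (SD, n = 3) of the vehicle mean. In RPMI its change of 0.01 ± 0.15 did not pass the test (adjusted p = 0.984), and the responses differed by −0.87 ± 0.21 (adjusted p = 0.00167).

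REL, at chr2:60881491-60931612 on the plus strand (10 exons), encodes c-Rel. It was 23.5, 24.3 and 23.7 CPM with vehicle and 34.1, 30.4 and 30 CPM with quizartinib in RPMI, and 24.2, 23.4 and 19.5 CPM with vehicle and 28.1, 31 and 30.2 CPM with quizartinib in hBMSC-CM. All quizartinib libraries lay above all vehicle libraries. The rise was 0.40 ± 0.07 on the log2 scale in RPMI (adjusted p = 3.28e-05) and 0.40 ± 0.07 in hBMSC-CM (adjusted p = 6.80e-05), and neither medium comparison passed the test. An snRNA and an lncRNA overlap REL on its own strand. RELA, at chr11:65653599-65663090 on the minus strand (11 exons), is overlapped on the opposite strand by the lncRNA RELA-DT and encodes the main activating subunit p65. Its group means were 58.5, 58.2, 59 and 60.8 CPM for vehicle and quizartinib in RPMI and vehicle and quizartinib in hBMSC-CM, the groups overlapped, and its log2 changes lay between −0.01 ± 0.06 for quizartinib in RPMI and 0.06 ± 0.06 for hBMSC-CM with quizartinib. With library size only in place of TMM, RELA passed the test as higher with quizartinib in hBMSC-CM (0.14, adjusted p = 0.0422).

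Per kilobase of the canonical transcript, a scale meant for comparing genes, RELA and NFKB1 made up most of the subunit mRNA. The scale takes the canonical transcript as the one expressed, which was not tested. It weighs most on REL, whose canonical transcript is the longest of the 5 (11108 bases). RELA held 47.8% ± 1.0 of the summed level of the 5 subunits with vehicle in RPMI and 53.2% ± 1.7 with quizartinib (SD, n = 3). NFKB1 went from 38.8% ± 1.1 to 28.4% ± 1.3 in RPMI and from 37.1% ± 0.6 to 34.1% ± 1.6 in hBMSC-CM (SD, n = 3). RELB held 3.41% ± 0.14 with vehicle in hBMSC-CM and 1.77% to 2.01% in the other groups. The summed level of the 5 subunits in RPMI was 48.6 ± 0.8 CPM per kb with vehicle and 43.4 ± 1.0 with quizartinib, and in hBMSC-CM it was 50.7 ± 1.1 and 47.8 ± 2.3 (SD, n = 3). On the same scale TNF was at 207 CPM per kb with vehicle in RPMI, against 36 for NFKBIA, 23.2 for RELA, 22.1 for TNFAIP3 and 18.9 for NFKB1. With quizartinib in RPMI it was at 7.92, below those of NFKBIA (46.6), RELA (23.1), NFKBIE (13.3) and NFKB1 (12.3).

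**Figure D2:**
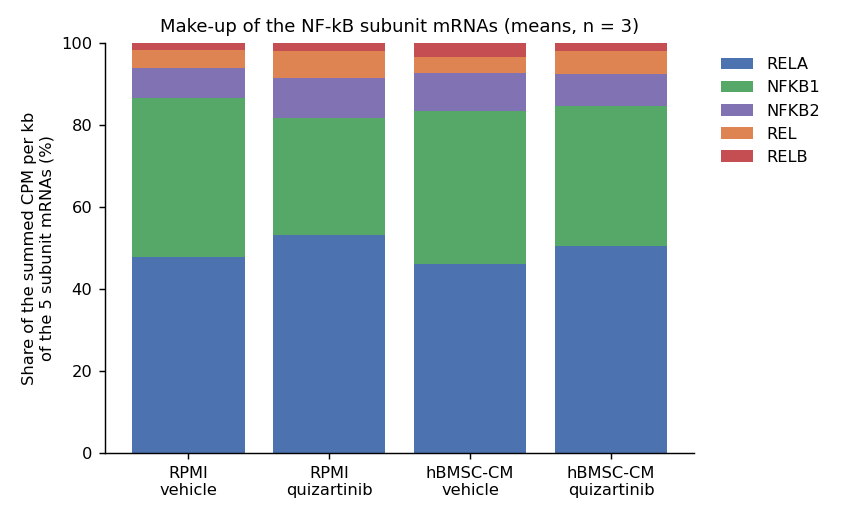
Share of the summed CPM per kb of the 5 NF-kB subunit mRNAs held by each subunit (y axis, %), as stacked means of 3 libraries for each of the 4 groups. The NFKB1 part is smallest with quizartinib in RPMI (28.4%) and the RELB part largest with vehicle in hBMSC-CM (3.41%).

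Counted together, 3 members were higher and 4 lower with quizartinib in RPMI, of 9 tested, where 79.2% of all tested genes were called (39.8% higher, 39.4% lower). In hBMSC-CM 1 was higher and 6 were lower, against 67.1% of all genes called (33.5% higher, 33.6% lower). Between media, 3 were higher and 1 lower in hBMSC-CM with quizartinib, where 69.8% of all genes were called (35.9% higher, 33.9% lower), and 2 were higher and 1 lower with vehicle, where 32.1% were called (16.6% higher, 15.5% lower). The responses to quizartinib differed between media for 6 members, with 3 differences positive and 3 negative, and for 45.2% of all genes (26.4% positive, 18.8% negative). With 9 genes, none of these shares was read as particular to the members. Calls of at least 2-fold, which TNF and TNFAIP3 supplied, took 21.4% and 6.9% of all genes for quizartinib in RPMI and hBMSC-CM. Between media they took 9.88% with quizartinib (TNFAIP3) and 1.39% with vehicle (RELB), and 5.95% for the difference between responses (TNFAIP3). Set against vehicle in RPMI, quizartinib in hBMSC-CM moved 5 of 9 members and 62% of all genes, by at least 2-fold in 6.3%. It left TNF at −3.83 ± 0.06, TNFAIP3 at −2.33 ± 0.05, NFKBIE at −0.31 ± 0.07 and NFKB1 at −0.21 ± 0.04 on the log2 scale and REL at 0.32 ± 0.07, all past the test, beside 30.6% of all genes higher and 31.4% lower. Comparisons that share a group are not independent of each other.

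**Figure D3:**
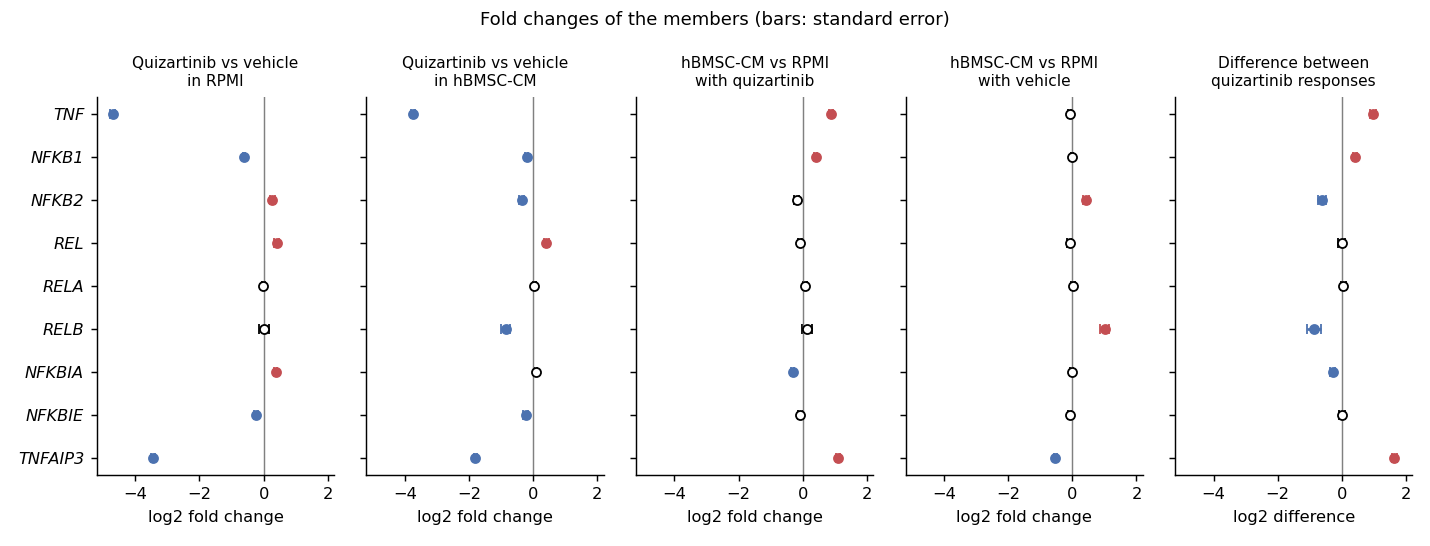
Log2 fold change of each of the 9 tested members (x axis) in 4 comparisons, and the difference between the quizartinib responses in hBMSC-CM and RPMI (right). Bars are the standard error, red and blue points passed the test as higher and lower, and open points did not. TNF (−4.71 and −3.74) and TNFAIP3 (−3.44 and −1.80) lie far from the other members under quizartinib.

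Around the members, 7 lists of TNF and NF-kB genes held 162 genes, of which 160 were in the table and 114 could be tested. The counts below stand against the shares of all tested genes called, which with quizartinib were 39.8% higher and 39.4% lower in RPMI and 33.5% higher and 33.6% lower in hBMSC-CM. The tested TNF superfamily ligands other than TNF moved mostly upward with quizartinib. In RPMI 6 of 7 tested ligands were higher and 1 was lower (median 0.77 on the log2 scale, against 0.02 over all tested genes), and in hBMSC-CM 5 were higher and 1 lower. TNFSF10, which encodes the death ligand TRAIL, went from 14.9 ± 1.0 to 39 ± 2.1 CPM in RPMI and from 12.7 ± 0.6 to 26.8 ± 1.9 CPM in hBMSC-CM (SD, n = 3). TNFSF13B, the B-cell factor BAFF, went from 20.4 ± 1.0 to 47.2 ± 1.3 CPM and from 20.9 ± 1.1 to 37.7 ± 2.7 CPM. LTB, which encodes lymphotoxin beta and was the tested ligand that fell, went from 6.42 ± 0.83 to 0.593 ± 0.083 CPM in RPMI and from 6.21 ± 0.64 to 1.95 ± 0.40 CPM in hBMSC-CM. LTA was too low to be tested. Its means were 0.517 and 0.125 CPM with vehicle and quizartinib in RPMI and 0.459 and 0.117 CPM in hBMSC-CM.

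Of 10 tested receptors, 1 rose and 5 fell with quizartinib in RPMI (39.4% of all genes fell), and 1 was higher and 7 were lower in hBMSC-CM (33.6% of all genes lower). The one that rose was TNFRSF1B, the TNFR2 receptor, by 0.60 ± 0.04 in RPMI (133 ± 2.9 to 201 ± 6.4 CPM) and 0.37 ± 0.04 in hBMSC-CM (173 ± 5.6 to 223 ± 9.0 CPM), both on the log2 scale. TNFRSF12A, the receptor of TWEAK, fell by 2.09 ± 0.21 and 1.5 ± 0.17. With quizartinib, 7 receptors were higher and 2 lower in hBMSC-CM, and with vehicle 7 were higher and 1 was lower. TNFRSF10A, a TRAIL receptor, was 2.39-fold higher with quizartinib (22.8 ± 1.7 against 9.6 ± 0.66 CPM). The 2 lower ones were FAS (−0.35 ± 0.10 on the log2 scale) and TNFRSF10D (−0.28 ± 0.05). The related TNFRSF10B was not called (−0.04 ± 0.04). Of all tested genes, 35.9% were higher and 33.9% lower in hBMSC-CM with quizartinib, and 16.6% and 15.5% with vehicle.

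Among 27 tested adaptors and ubiquitin enzymes, 13 were higher and 7 lower with quizartinib in RPMI, and 12 higher and 7 lower in hBMSC-CM, beside 39.8% and 39.4% of all genes in RPMI and 33.5% and 33.6% in hBMSC-CM. TRAF3, which restrains the non-canonical arm by having NIK degraded, went from 25.2 ± 0.58 to 6.33 ± 0.22 CPM in RPMI and from 36.6 ± 1.6 to 22.9 ± 0.32 CPM in hBMSC-CM, and its responses differed by 1.32 ± 0.09 on the log2 scale (adjusted p = 1.20e-10). TRAF1 rose by 2.03 ± 0.15 in RPMI, from 1.42 ± 0.26 to 5.87 ± 0.24 CPM, and was 2.81-fold lower in hBMSC-CM with quizartinib. CFLAR, which encodes the caspase-8 inhibitor c-FLIP, went from 71.8 ± 2.9 to 144 ± 5.9 CPM in RPMI and from 62 ± 1.8 to 101 ± 2.8 CPM in hBMSC-CM, and its responses differed by −0.30 ± 0.06 on the log2 scale (adjusted p = 0.000741). The list of the IKK complex and its upstream kinases held 13 tested genes, not all of them kinases. Of these, 8 were higher and 2 lower in RPMI, led by MAP3K8 (1.51 ± 0.09, encoding the kinase TPL2) and IKBKE (−0.69 ± 0.05). In hBMSC-CM 5 were higher and 2 lower.

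Of 15 tested IkB family members and feedback inhibitors other than the members, 4 were higher and 6 lower with quizartinib in RPMI and 5 higher and 5 lower in hBMSC-CM, where all genes were called at the shares given for the adaptors. BCL3, an atypical IkB protein that binds p50 and p52, was at 2.92 ± 0.70 and 6.37 ± 0.42 CPM with vehicle and quizartinib in RPMI and at 7.3 ± 0.98 and 20.3 ± 3.8 CPM in hBMSC-CM, so that it was 6.92-fold higher with quizartinib in hBMSC-CM than with vehicle in RPMI (adjusted p = 1.23e-12). PDLIM2, which encodes a nuclear ubiquitin ligase for p65, fell by 1.95 ± 0.13 in RPMI, from 7.32 ± 0.42 to 1.9 ± 0.04 CPM, and was at 4.25 ± 0.68 and 4.69 ± 0.14 CPM with vehicle and quizartinib in hBMSC-CM. Of 18 genes of TNF processing and mRNA control, 10 were higher and 4 lower with quizartinib in RPMI (39.8% and 39.4% of all genes) and 8 higher and 4 lower in hBMSC-CM (33.5% and 33.6%). KHSRP, which encodes a protein that destabilises AU-rich mRNAs, went from 342 ± 13 to 151 ± 8.0 CPM in RPMI and from 342 ± 20 to 221 ± 16 CPM in hBMSC-CM. RHBDF2, which encodes iRhom2, a cofactor of the TNF-releasing protease ADAM17, went from 19.2 ± 0.81 to 34.7 ± 0.80 CPM in RPMI. In hBMSC-CM it was at 18.3 ± 1.5 and 20.1 ± 1.1 CPM, and this change did not pass the test (adjusted p = 0.119, edgeR). ZFP36L2, the largest increase of this list in hBMSC-CM, rose in both media. It went from 144 ± 10.9 to 259 ± 3.95 CPM in RPMI and from 99.8 ± 5.4 to 182 ± 28.9 CPM in hBMSC-CM.

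**Figure D4:**
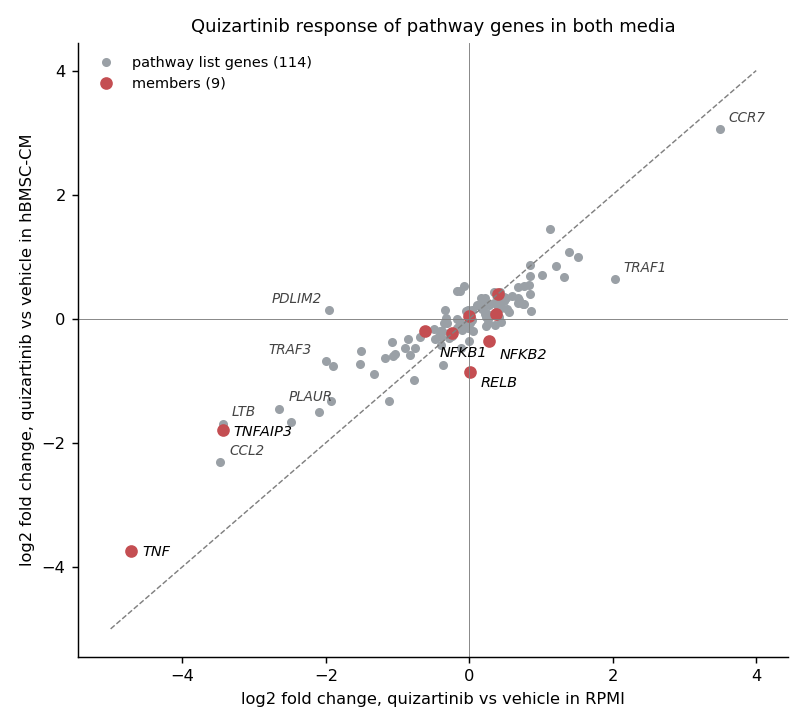
Log2 fold change with quizartinib in RPMI (x axis) and in hBMSC-CM (y axis) for the 9 tested members (red) and the 114 tested list genes (grey), with the line of equal change dashed. TNF (−4.71, −3.74) lies lowest, PDLIM2 (−1.95 in RPMI) lies near 0 in hBMSC-CM, and RELB lies near 0 in RPMI and at −0.86 in hBMSC-CM.

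Of the 44 listed NF-kB target genes other than the members, 24 could be tested. With quizartinib in RPMI 6 were higher and 15 lower (median −0.35, against 0.02 over all tested genes), and in hBMSC-CM 6 were higher and 11 lower (median −0.21). PLAUR, the urokinase receptor, went from 179 ± 5.1 to 28.5 ± 1.5 CPM in RPMI and from 217 ± 10 to 79.6 ± 3.0 CPM in hBMSC-CM (difference between responses 1.20 ± 0.07, adjusted p = 8.80e-12). TNFAIP2 went the other way, from 40.8 ± 2.0 to 102 ± 2.3 CPM in RPMI and from 39.6 ± 1.4 to 63.3 ± 2.8 CPM in hBMSC-CM. The chemokine receptor CCR7 was at 0.273 ± 0.178 and 3.27 ± 0.32 CPM with vehicle and quizartinib in RPMI, low enough that its fold rests on few counts. In hBMSC-CM it was at 0.405 and 3.41 CPM. It met the filter of 1 CPM through its quizartinib libraries, so its rise was partly set by the filter. CCL2, a monocyte chemokine, was at 1.49 ± 0.46 and 0.138 ± 0.049 CPM with vehicle and quizartinib in RPMI, the latter near the limit that a count of 0 allows.

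A number of target genes were higher in hBMSC-CM. With vehicle 11 of 24 targets were higher and 3 lower in hBMSC-CM, where 16.6% of all tested genes were higher and 15.5% lower. With quizartinib 12 were higher and 8 lower, where 35.9% of all tested genes were higher and 33.9% lower. Called higher in both of these comparisons were 11 of the 24 targets and 13.7% of all tested genes. The list was chosen with earlier results of these data known, so it is not independent of them. CCL2 was at 1.49 and 0.138 CPM with vehicle and quizartinib in RPMI and at 7.78 and 1.58 CPM in hBMSC-CM. It met the filter of 1 CPM through hBMSC-CM, so its being higher there was partly set by the filter. The 11 were named after their values were seen: CXCL8, CCL2, CCL20, IL1B, IL23A, ICAM1, PLAU, SOD2, BCL2A1, IER3 and PLAUR. IER3, a stress-induced survival gene, was at 25.1 ± 0.47 and 67.8 ± 1.6 CPM with vehicle in RPMI and hBMSC-CM and at 6.73 ± 0.37 and 39.8 ± 2.4 CPM with quizartinib. IL1B, the cytokine IL-1 beta, was at 4.78 ± 0.36 and 14.5 ± 0.88 CPM with vehicle and at 0.88 ± 0.29 and 4.59 ± 0.20 CPM with quizartinib. The adhesion molecule ICAM1 was at 14.9 ± 0.83 and 33.6 ± 1.2 CPM with vehicle and at 11.4 ± 0.59 and 29.4 ± 0.70 CPM with quizartinib. CCL3 and CD83 were lower in hBMSC-CM with and without quizartinib, as were 11.7% of all tested genes. CCL3 met the filter through RPMI (2.68 and 1.24 CPM with vehicle and quizartinib, against 1.11 and 0.436 CPM in hBMSC-CM). With vehicle, the calls of IL23A and CD83 were lost when single libraries were left out, down to 0.38 for IL23A without hBMSC-CM vehicle replicate 3 and to −0.15 for CD83 without RPMI vehicle replicate 3. Of the 9 tested members, 2 were higher in hBMSC-CM with vehicle, NFKB2 (0.43 ± 0.09 on the log2 scale) and RELB (1.01 ± 0.14). TNFAIP3 was lower (−0.53 ± 0.05), and the other 6, TNF and NFKBIA among them, were not called.

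**Figure D5:**
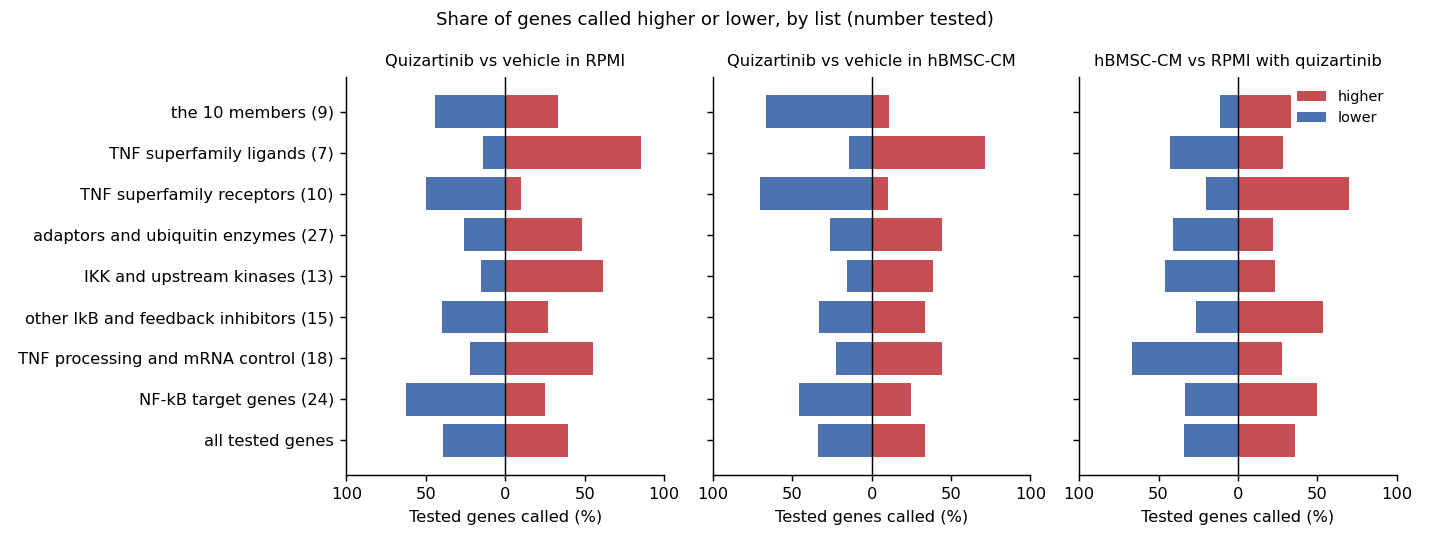
Share of tested genes (x axis, %) called higher (red, right) or lower (blue, left) in each list, with the number tested in brackets, in 3 comparisons. Ligands lean to the right with quizartinib in RPMI (6 of 7) and target genes to the left (15 of 24), and all tested genes are near balance (39.8% higher and 39.4% lower).

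The genes whose pattern over the 12 libraries was closest to each member, by the root mean square difference of centred log2 CPM, differed in how close they came. For NFKB1 the closest, PTPN9, SRSF9 and ATL3, came within 0.0294 to 0.0323, and for NFKBIA EIF3F, WWP2 and CXXC5 within 0.0356 to 0.0386. For TNFAIP3 they were RRM2 (0.23), HIST1H3A (0.294) and PKMYT1 (0.297). Nearest to TNF were CCNE2 (0.924), ETV4 (0.925) and RGS16 (0.938). CCNE2 was at 81.3 and 5.71 CPM with vehicle and quizartinib in RPMI and at 76.8 and 27.1 CPM in hBMSC-CM.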

How the data were processed

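The authors trimmed paired-end reads of poly-A-selected RNA with BBDuk, aligned them to the human genome (hg38) with STAR 2.6.0a, counted reads per gene, merged identifiers of the same gene name by addition, and deposited raw counts without normalization. The strand setting of the counting is not given in the sources used here. Reads of overlapping genes cannot be reassigned from such a table.

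The 12998 genes tested had a mean of at least 1 count and at least 1 CPM in the 12 libraries. Library size was the sum of all counts, scaled by TMM. One model with 4 group means was fitted with edgeR 4.0.16 (glmQLFit, glmQLFTest) in R 4.3.3, two-sided, with Benjamini-Hochberg adjustment over all tested genes and a threshold of 0.05. The standard error is the log2 fold change divided by the root of the F statistic. A count of 0 allows 3 counts. After results were first seen, library sizes summed over the tested genes were tried in place of all counts. Because this choice brought NFKB2 past the threshold for hBMSC-CM against RPMI with quizartinib, all counts stayed the main setting and the other is given as an added alternative.

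The other alternatives were DESeq2-type, upper-quartile and no scaling factors, the DESeq2 1.42.0 Wald test, limma-voom (limma 3.58.1), no filter or filterByExpr, a threshold of 0.01, a fold of at least 2, models of fewer groups or with a replicate block, and each library left out. Groups came from the sample labels. Replicate numbers did not pair the samples. The members and lists were chosen with earlier results of these data known. Besides the members, the rule named the largest called increase and decrease of each list in each comparison, and the 3 genes of at least 10 CPM most like each member. Coordinates and transcript lengths are from GENCODE (hg38), matched by name, and start regions from RefSeq (GRCh38.p14), where 8 of the 10 members had one.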

Additional observations from a re-analysis of the deposited data

Results flagged for a closer look

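The response to quizartinib differed between hBMSC-CM and RPMI, by the interaction term of the edgeR model, for 6 members, for 62 of the 114 tested list genes (28 positive, 34 negative) and for 45.2% of all tested genes. Values are the log2 change in hBMSC-CM minus that in RPMI with the standard error. Of the members it was positive for TNF (0.97 ± 0.09), TNFAIP3 (1.64 ± 0.08) and NFKB1 (0.41 ± 0.06), the 3 that fell less in hBMSC-CM. It was negative for NFKB2 (−0.63 ± 0.12), RELB (−0.87 ± 0.21) and NFKBIA (−0.29 ± 0.07). Of the ligands and receptors it was 1.75 ± 0.28 for LTB, −0.36 ± 0.09 for TNFSF13B, 0.80 ± 0.10 for TNFRSF10A and −0.34 ± 0.10 for TNFRSF21. Of the adaptors and kinases it was 1.32 ± 0.09 for TRAF3, −1.39 ± 0.25 for TRAF1, 0.39 ± 0.07 for IKBKE and −0.51 ± 0.11 for MAP3K14. Of the inhibitors and the genes of TNF processing it was 2.10 ± 0.18 for PDLIM2, −0.42 ± 0.06 for TNIP1, 0.55 ± 0.08 for KHSRP and −0.73 ± 0.09 for RHBDF2. Of the target genes it was 1.20 ± 0.07 for PLAUR and −0.64 ± 0.07 for TNFAIP2. The 14 list genes given are those with the largest positive and negative interaction in each list, so they stand for the ends of the lists and not for their middle.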

How the results depend on the processing

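The changes of TNF, TNFAIP3 and NFKB1 with quizartinib kept their direction and their call at the adjusted p threshold of 0.05 under every alternative fit and with each library left out. The counts of called members moved by more than 1.5 times in no setting other than a required fold of at least 2. That setting left 2 members for quizartinib in RPMI and in hBMSC-CM, 1 for hBMSC-CM with quizartinib, 1 with vehicle, 1 for the difference between responses and 2 for quizartinib in hBMSC-CM against vehicle in RPMI. Over single genes, 16 values came to pass the test and 28 lost it, and 42 changed sign, all of them uncalled values near 0, and the cause was not tested.

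Library size only and upper-quartile factors moved the median log2 change of all genes from 0.02 to 0.112 and 0.126 for quizartinib in RPMI, and from 0.011 to 0.112 and 0.092 in hBMSC-CM. The share of calls that were higher went from 50% to 62.7% and 60% in hBMSC-CM, and from 49.3% to 62% and 57.4% for quizartinib in hBMSC-CM against vehicle in RPMI. With library size only, RELA and NFKBIA also passed the test as higher with quizartinib in hBMSC-CM against vehicle in RPMI (0.139 and 0.147), and NFKBIA with upper-quartile factors (0.116).

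The sign changes were these. RELA in RPMI with quizartinib was 0.0847 with library size only and 0.099 with upper-quartile factors, and RELA between media with vehicle was −0.0037 and −0.0135. RELB in RPMI with quizartinib was −0.0933 without a filter, −0.0456 with filterByExpr and −0.0092 with 2 groups in the model. NFKBIE between media with quizartinib was 0.0006 without a filter, and NFKB1 between media with vehicle was 0.0003 with filterByExpr. The difference between responses was 0.0099, 0.0003, 0.0655 and 0.0275 for REL with library size only, limma-voom, no filter and filterByExpr. For NFKBIE it was −0.01 with DESeq2-type size factors, −0.0212 with upper-quartile factors, −0.0114 with the DESeq2 Wald test and −0.0018 with library sizes over the tested genes.

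With each library left out in turn, values that changed sign ranged for RELA from −0.0302 to 0.0412 in RPMI, −0.0292 to 0.0953 in hBMSC-CM, −0.0106 to 0.115 and −0.0075 to 0.0268 between media with quizartinib and vehicle, −0.0247 to 0.102 for the difference between responses and −0.0151 to 0.109 for quizartinib in hBMSC-CM against vehicle in RPMI. They ranged for RELB in RPMI from −0.0495 to 0.0933, for NFKB1 between media with vehicle from −0.0233 to 0.0104, for REL there from −0.153 to 0.0005, and for the difference between responses from −0.0845 to 0.0687 for REL and −0.109 to 0.0634 for NFKBIE. NFKBIE was called lower in hBMSC-CM with quizartinib without hBMSC-CM quizartinib replicate 1 (−0.184). TNFSF10 lost its call between media with vehicle without any of 4 libraries (−0.219 to −0.189), with the DESeq2 Wald test (−0.223) and without a filter (−0.22).

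The same replicate numbers did not pair the samples: deviations of same-numbered libraries correlated at −0.228 to 0.0979 over 18 pairs. With a replicate block, the counts of called members were 7, 7, 4, 3, 6 and 5, equal to those without it, and the difference between responses for REL was 0.0042. Of the named genes CD83 lost its call between media with vehicle under the block (−0.187), with the DESeq2 Wald test (−0.183), without a filter (−0.18) and with filterByExpr (−0.179). RELB rests on 39 to 127 counts a library, and BIRC3 is limited by depth alone to under 0.0101 CPM over all libraries.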
